A study of Mus musculus with 7 samples.

Results

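The 10 genes described here encode sensors of foreign or misplaced RNA and DNA, the adaptors that carry their signal, and enzymes that modify the RNA or the sensors: Ifih1, Dhx58, Tlr3, Mavs, Trim25, Cgas, Sting1, Eif2ak2, Zbp1 and Adar. They were taken by symbol from the 56748 gene identifiers counted in each library, and all 10 were found. They were selected on their function and on their normalized counts in these same WT and Jag2sm libraries, and the separate showing of Jag2sm replicate 3 was chosen by those counts too. Their differences between genotypes are therefore a description, no p-value of a member is given, and counts of members past a threshold restate this choice and support nothing.

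RNA was sequenced from cultured MuSCs (muscle stem cells, the progenitors that rebuild skeletal muscle fibers after injury) of the hind limb muscles of adult mice, as 3 WT and 4 homozygous Jag2sm libraries. Jag2 encodes a ligand of the NOTCH receptors, and Jag2sm is a hypomorphic missense allele in the first EGF repeat of the protein, which is entered in the labels as Jag2-/-. Cells carrying CD31, CD45 or Sca1 were removed, cells carrying Integrin α7 were kept by magnetic sorting, and these were grown in myoblast growth medium before cDNA was read on nanopores. The ages of the mice within adulthood are not in the sources used here, and nothing there says that each library came from a separate mouse, so the p-values below measure the spread between these 7 samples, which may be technical. WT replicates 1 to 3 held 187834, 1657016 and 1159203 reads on genes, and Jag2sm replicates 1 to 4 held 671660, 1421058, 1937581 and 1223863. Levels are given as CPM, the reads of a gene relative to the TMM-scaled reads on genes of its library, and error ranges of single libraries are exact 95% Poisson intervals, which cover counting error only.

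In vertebrate cells, long double-stranded RNA in the cytosol is bound by MDA5 (the product of Ifih1), which signals through MAVS on mitochondria, whereas cytosolic DNA is bound by cGAS, whose cyclic dinucleotide product is read by STING. Both routes lead to type I interferon, which in turn raises many of the sensors themselves. The kinase PKR (Eif2ak2) stops translation when it binds double-stranded RNA, ZBP1 binds nucleic acids in the left-handed Z form and can start necroptosis, and ADAR edits adenosines in double-stranded RNA, which keeps the cell's own RNA from being sensed.

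Ahead of the members, the labels were checked. The Jag2 level was 79.0, 112 and 114 CPM in WT replicates 1 to 3 and 41.6, 77.4, 70.8 and 76.1 CPM in Jag2sm replicates 1 to 4. Every Jag2sm library was below every WT library, but the difference did not pass the test (log2 fold change -0.64 ± 0.24 SE, edgeR adjusted p = 0.166). A missense allele leaves its RNA in place, so this level is only a weak check of the genotype. All 6 muscle stem cell markers looked for (Pax7, Myf5, Myod1, Itga7, Cdh15 and Des) were detected in every library, with Pax7, the transcription factor that defines these cells, at 28.2, 94.2 and 79.4 CPM in WT and at 98.4, 127, 169 and 123 CPM in Jag2sm. Their levels were not equal between genotypes. Des, a muscle intermediate filament, was called lower in Jag2sm (log2 fold change -1.63 ± 0.36 SE, edgeR adjusted p = 0.0244), and the other 5 were not called, from -0.63 for Itga7 to 0.80 for Pax7. The 6 markers, with Des the most abundant, summed to 5484, 2996 and 2978 CPM in WT and to 1776, 1793, 1803 and 2190 CPM in Jag2sm, and the part of this difference in the results below was not tested.

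Some libraries stood apart in ways that bear on every value below. WT replicate 1 was the shallowest, and 1 read there is worth 5.64 CPM, so a count of 0 in it allows a level of up to 16.9 CPM. In it, 45.1% of the aligned reads fell outside genes, and in the other 6 libraries 20.8% to 25.7% did. Jag2sm replicates 1, 2 and 4 had 50.8%, 46.7% and 46.0% of their reads not aligned to the mouse genome. Jag2sm replicate 3 had 3.07%, close to the 3.24%, 2.44% and 2.86% of the WT libraries. What the unaligned reads are was not analysed here, and their part in the results was not tested.

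The start regions of 7 members were found among RefSeq promoters (table build GRCm38.p6), each 250 bases before to 50 bases after a start, and were placed on GRCm39 by an exact match. Of these, 3 are shown, since among the 7 genes Ifih1 and Eif2ak2 differed most and Mavs least between genotypes. They are the windows of Ifih1 (chr2:62476550-62476849, minus strand), Eif2ak2 (chr17:79189952-79190251, minus strand) and Mavs (chr2:131075733-131076032, plus strand), printed 5′ to 3′, with capitals marking GAAANNGAAA, the core of the interferon-stimulated response element.
Ifih1: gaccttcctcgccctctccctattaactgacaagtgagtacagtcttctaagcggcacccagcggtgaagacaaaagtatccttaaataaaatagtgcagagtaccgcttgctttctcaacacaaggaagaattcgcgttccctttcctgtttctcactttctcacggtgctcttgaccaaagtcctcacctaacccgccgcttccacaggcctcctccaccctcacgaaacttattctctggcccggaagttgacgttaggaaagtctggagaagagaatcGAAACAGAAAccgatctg
Eif2ak2: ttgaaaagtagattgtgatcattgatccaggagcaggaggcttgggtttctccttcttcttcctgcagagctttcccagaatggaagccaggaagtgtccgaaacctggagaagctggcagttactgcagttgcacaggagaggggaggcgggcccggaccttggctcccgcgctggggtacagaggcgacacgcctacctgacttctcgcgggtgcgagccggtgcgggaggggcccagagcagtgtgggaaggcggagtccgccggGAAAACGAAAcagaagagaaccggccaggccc
Mavs: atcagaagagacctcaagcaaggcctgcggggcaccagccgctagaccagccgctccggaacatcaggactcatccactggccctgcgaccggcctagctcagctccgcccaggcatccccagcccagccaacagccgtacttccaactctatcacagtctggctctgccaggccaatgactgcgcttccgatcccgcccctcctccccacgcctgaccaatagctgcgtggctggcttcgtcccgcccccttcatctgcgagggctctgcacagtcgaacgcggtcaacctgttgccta
GAAANNGAAA, sought on both strands, began at base 33 counted from the start site in Ifih1 (as GAAACAGAAA) and at base 19 in Eif2ak2 (as GAAAACGAAA). These were the 2 members with a match among the 7, over 9 windows, while 3.99% of the 27025 genes of the table hold one in any of their promoters (3.44% of the 32851 promoters). TTCNNNGAA, the core of the gamma-activated sequence, was found in Eif2ak2 (TTCCCAGAA) and in 1 of the 3 Adar windows (TTCAAGGAA), and 9.55% of the genes hold it (8.3% of the promoters). A match is a string of letters in the window, and whether a factor binds it was not measured. Only exact matches were sought, so a window without one may still hold a near match.

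The RNA sensor Ifih1 was nearly absent from WT MuSCs and was counted mainly in Jag2sm replicates 1, 2 and 4. The gene lies on chromosome 2 at 62425714 to 62476607 (GRCm39, minus strand; ENSMUSG00000026896.15). Its level was 0, 0.637 and 0 CPM in WT replicates 1 to 3 and 9.70, 24.4, 1.45 and 16.8 CPM in Jag2sm replicates 1 to 4, from 0, 1 and 0 reads and 7, 36, 3 and 21 reads. The measured levels of all 4 Jag2sm libraries were above those of WT, but the 0 of WT replicate 1 allows a level above Jag2sm replicates 1, 3 and 4. Replicate 3 was below replicates 2 and 4 beyond counting error and within the counting error of WT replicate 2 (0.300 to 4.25 CPM against 0.0161 to 3.55 CPM). Replicates 2 and 4 could not be ordered, since their intervals of 17.1 to 33.8 CPM and 10.4 to 25.7 CPM overlapped, and neither could replicates 1 and 3, with an interval of 3.90 to 20.0 CPM for replicate 1. Jag2sm replicates 1, 2 and 4 held 6.67, 16.8 and 11.6 times the level of replicate 3. From the 1 read in all of WT and the 67 in all of Jag2sm, the log2 ratio was 5.10, with a 95% interval of 2.57 to 10.4 for counting error, and the fitted log2 fold change was 4.84 ± 1.34 (SE), a value that depends on the prior count because WT is so low. Leaving out WT replicate 2, which holds the only WT read, gave 6.88, leaving out WT replicate 3 gave 4.27, and limma-voom gave 2.84.

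Dhx58, which encodes LGP2, a helicase of the same family that lacks the signaling domains of MDA5 and tunes its response, was too sparse to be tested. It lies on chromosome 11 at 100585710 to 100595097 (minus strand). WT replicates 1 to 3 had 0, 2.55 and 1.87 CPM and Jag2sm replicates 1 to 4 had 4.16, 12.2, 1.45 and 3.20 CPM, from 6 reads in all of WT and 28 in all of Jag2sm. Jag2sm replicate 2 was the highest, but its interval of 7.24 to 19.3 CPM overlapped those of Jag2sm replicates 1 and 4 and of WT replicate 1. The groups overlapped, and the interval of the log2 ratio of summed counts (1.26, from -0.04 to 2.82) included 0. Tlr3, the endosomal receptor of double-stranded RNA on chromosome 8 at 45848702 to 45864117 (minus strand), was rarer still. It gave 0, 1.27 and 0 CPM in WT and 0, 4.07, 0.485 and 2.40 CPM in Jag2sm, and the groups overlapped. The log2 ratio of its summed counts was 1.36, from -0.87 to 4.59, so no difference in Tlr3 was detectable at this depth.

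Mavs, the mitochondrial adaptor that MDA5 signals through, was detected in every library and varied little. It lies on chromosome 2 at 131075442 to 131096740 (plus strand). Its level was 28.2, 25.5 and 29.9 CPM in WT replicates 1 to 3 and 31.9, 33.3, 33.9 and 42.5 CPM in Jag2sm replicates 1 to 4. The 4 Jag2sm libraries were all above the WT libraries, but by so little that the lowest of them and the highest WT library lay well within counting error of each other (20.2 to 47.8 CPM and 20.4 to 42.2 CPM). Jag2sm replicate 3 did not stand apart, and replicates 1, 2 and 4 held 0.939, 0.981 and 1.25 times its level. The fitted log2 fold change was 0.36 ± 0.24 (SE).

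Trim25, a ubiquitin ligase known for acting on the RNA sensor RIG-I, had a graded pattern. It lies on chromosome 11 at 88890202 to 88911122 (plus strand). WT replicates 1 to 3 had 5.64, 23.6 and 26.2 CPM, from 1, 37 and 28 reads, and Jag2sm replicates 1 to 4 had 45.7, 94.4, 28.6 and 82.5 CPM, from 33, 139, 59 and 103 reads. Jag2sm replicate 3 was level with WT replicates 2 and 3 (its interval of 21.8 to 36.9 CPM holds both), while replicates 2 and 4 were the highest and not separable from each other. The fitted log2 fold change was 1.50 ± 0.46 (SE).

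On the DNA side, the sensor and the adaptor behaved differently in abundance. Cgas, on chromosome 9 at 78337802 to 78350535 (minus strand), was too sparse to be tested. It gave 0, 1.91 and 3.74 CPM in WT and 2.77, 6.79, 1.94 and 7.21 CPM in Jag2sm, with overlapping groups and a log2 ratio of summed counts of 0.87, from -0.38 to 2.32. Sting1, on chromosome 18 at 35866732 to 35873607 (minus strand), was found in every library, at 16.9, 18.5 and 16.8 CPM in WT and 36.0, 34.6, 19.9 and 25.6 CPM in Jag2sm. Jag2sm replicates 1 and 2 were the highest, and replicate 3 was the nearest to WT, with an interval of 14.3 to 27.0 CPM that holds all 3 WT values. The fitted log2 fold change of Sting1 was 0.69 ± 0.30 (SE).

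Eif2ak2, the gene of PKR, was counted in every library, with 31 reads in all of WT and 318 in all of Jag2sm, and Jag2sm replicate 2 was far above the rest. It lies on chromosome 17 at 79159972 to 79190012 (minus strand). Its level was 5.64, 13.4 and 8.41 CPM in WT replicates 1 to 3 and 44.3, 122, 16.5 and 58.5 CPM in Jag2sm replicates 1 to 4. Replicate 2 was above every other library beyond counting error (104 to 141 CPM), replicates 1 and 4 came next and could not be ordered, and replicate 3 overlapped WT replicate 2 (11.4 to 23.0 CPM against 8.27 to 20.4 CPM). Jag2sm replicates 1, 2 and 4 held 2.69, 7.38 and 3.55 times the level of replicate 3. The log2 ratio of summed counts was 2.39 (1.86 to 2.97), and the fitted log2 fold change was 2.50 ± 0.67 (SE), or 1.88 when Jag2sm replicate 2 was left out.

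Zbp1, on chromosome 2 at 173033815 to 173060724 (minus strand), had a profile close to that of Ifih1. The reads numbered 0, 1 and 0 in WT replicates 1 to 3 and 6, 32, 3 and 17 in Jag2sm replicates 1 to 4, which is 0, 0.637 and 0 CPM and 8.31, 21.7, 1.45 and 13.6 CPM. As for Ifih1, replicate 3 was near WT replicates 2 and 3. Jag2sm replicates 1, 2 and 4 held 5.72, 14.9 and 9.37 times its level, of which the difference for replicate 1, with an interval of 3.05 to 18.1 CPM, was within counting error. The log2 ratio of summed counts was 4.89 (2.36 to 10.2), and the fitted log2 fold change was 4.62 ± 1.31 (SE). Leaving out WT replicate 2, the holder of the single WT read, gave 6.67, leaving out WT replicate 3 gave 4.06, and limma-voom gave 2.68.

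Adar, on chromosome 3 at 89622329 to 89660753 (plus strand), was low in all libraries. It gave 0, 6.37 and 2.80 CPM in WT and 9.70, 25.1, 6.78 and 13.6 CPM in Jag2sm, from 13 reads in all of WT and 75 in all of Jag2sm. Replicate 2 was the highest, and replicate 3 was barely above WT replicate 2, with intervals that largely coincide (3.71 to 11.4 CPM against 3.05 to 11.7 CPM). The log2 ratio of summed counts was 1.56 (0.70 to 2.54), and the fitted log2 fold change was 1.64 ± 0.62 (SE), or 2.54 when WT replicate 2 was left out. Dhx58, Eif2ak2, Tlr3, Mavs, Cgas and Adar each share exonic bases with an antisense gene. Since the strand setting of the counting is not given in the sources used here, their counts may hold reads of that neighbor. They may instead lack reads that were set aside as ambiguous between 2 genes. Ifih1, Zbp1, Sting1 and Trim25 have no such overlap.

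**Figure D1:**
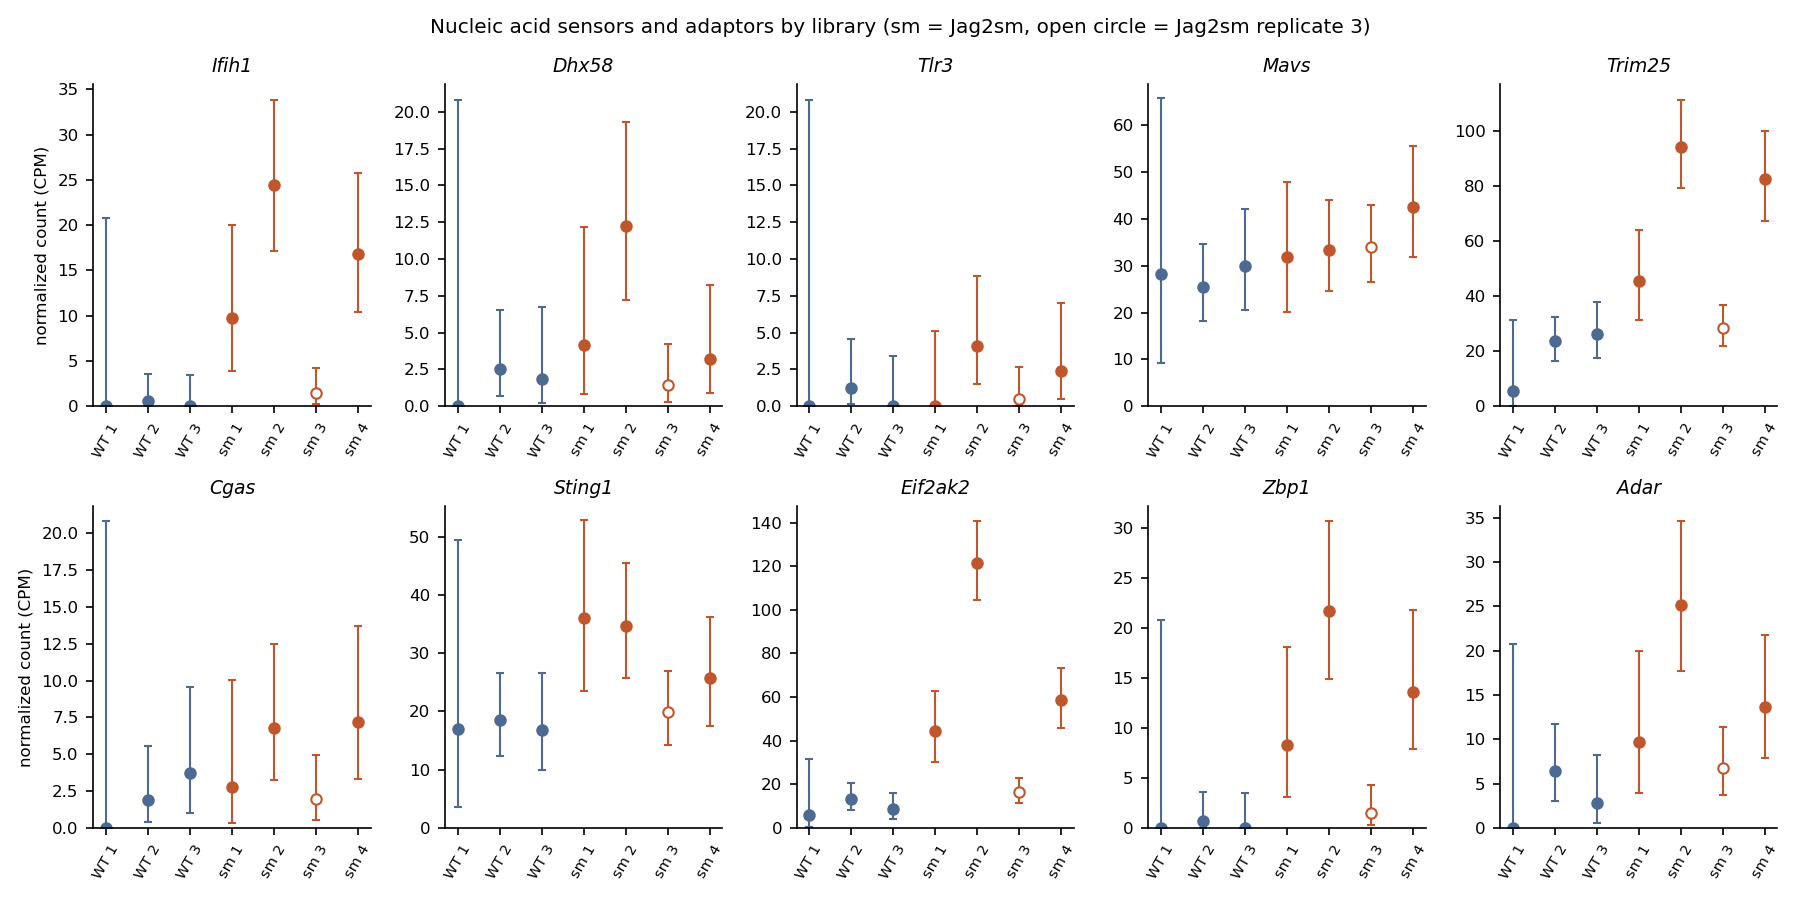
Level of each of the 10 genes in CPM (vertical axes, from 0, each panel with its own scale) in the 3 WT and 4 Jag2sm libraries, with exact 95% Poisson intervals as bars and Jag2sm replicate 3 as an open circle. Ifih1, Zbp1 and Eif2ak2 are high in Jag2sm replicates 1, 2 and 4 and near WT in replicate 3, while Mavs lies between 25.5 and 42.5 CPM in all 7 libraries.

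Across the 10 genes, Jag2sm replicate 3 was the lowest of the 4 Jag2sm libraries for 8, the exceptions being Tlr3 and Mavs, and replicate 2 was the highest for 7. The summed level of the 10 genes was 56.4, 94.2 and 89.7 CPM in WT replicates 1 to 3 and 193, 378, 112 and 266 CPM in Jag2sm replicates 1 to 4. The libraries with the higher sums are those with many unaligned reads, and the 2 measures cannot be told apart within Jag2sm. Of the 10, 7 passed the filter on low counts and were tested, and Dhx58, Tlr3 and Cgas did not. None of the 7 was called by edgeR at an adjusted p under 0.05, where 1.42% of all 9489 tested genes were called higher in Jag2sm and 4.84% lower. At an unadjusted p under 0.05 there were 6 of the 7 (all but Mavs), beside 19.7% of all tested genes in either direction and 8.76% that were higher. In the same 7 genes every Jag2sm library was above every WT library, beside 10.2% of all tested genes. Both counts follow from how the members were chosen and are read no further. The filter keeps a sparse gene when it is high enough in 1 genotype, so Ifih1, Zbp1 and Adar were tested only because of their reads in Jag2sm. These dropped out of the test when Jag2sm replicate 1, 2 or 4 was left out. Eif2ak2 and Trim25, with 1 read each in WT replicate 1, also needed their reads in Jag2sm to pass. They stayed in the test when any 1 library was left out.

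Which members passed the threshold depended on 1 library and on the tool, which is given here as a property of the fits and not as a test of the members. Without Jag2sm replicate 3, Ifih1, Eif2ak2, Zbp1 and Trim25 were called higher, beside 2.39% of the genes tested there, and DESeq2 called the same 4 with all 7 libraries (1.66% of genes), while limma-voom called none. With the replicate number as a block, Ifih1, Eif2ak2 and Zbp1 were called higher, beside 1.23% of genes. With Jag2sm replicate 3 alone against the 3 WT libraries, 5 members were tested and none was called, beside 0.354% of genes.

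**Figure D2:**
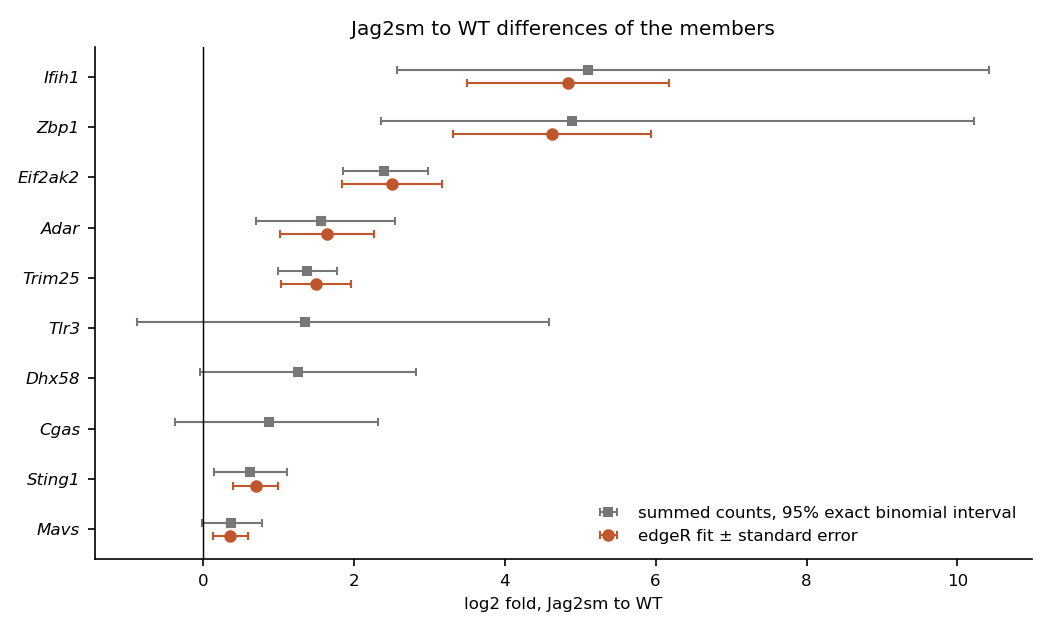
Difference of each gene between Jag2sm and WT on a log2 scale (horizontal axis), with grey squares for the ratio of summed, scaled counts and its 95% exact binomial interval (counting error only) and orange circles for the edgeR log2 fold change ± SE of the 7 tested genes. Ifih1 and Zbp1 have the largest values and the widest intervals, and the intervals of Tlr3, Dhx58, Cgas and Mavs include 0.

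The labels give each library a batch number equal to its replicate number, so the genotypes can be compared in batches 1, 2 and 3, with 1 library each and no test. On the log2 CPM scale with a prior count of 2, Ifih1 was higher in Jag2sm by 2.76 in batch 1, 3.49 in batch 2 and 0.90 in batch 3. Eif2ak2 was higher by 2.65, 3.03 and 0.85, and Zbp1 by 2.57, 3.34 and 0.90. All 3 had their smallest difference in batch 3. For Ifih1 and Zbp1 the WT libraries of batches 1 and 3 held no read, and what a count of 0 allows there (16.9 and 2.80 CPM) is above the Jag2sm level, so that a difference was detectable at this depth in batch 2 only. Trim25 was higher by 2.69, 1.93 and 0.12, Adar by 2.76, 1.74 and 0.92, and Sting1 by 1.02, 0.85 and 0.22. For Adar the WT library of batch 1 also held no read, and the 16.9 CPM that this allows is above the 9.70 CPM of Jag2sm replicate 1. The differences of Mavs were 0.17, 0.36 and 0.17. By the Poisson intervals of the libraries, Eif2ak2 and Adar differed beyond counting error in batch 2 only, and Sting1 and Mavs in no batch. Trim25 did so in batch 2 and only just in batch 1 (31.4 against 31.5 CPM at the nearest limits), where WT held 1 read. The 3 sparse genes changed sign or reached 0 in a batch, with Dhx58 at 1.80, 1.72 and -0.18, Cgas at 1.41, 1.24 and -0.58 and Tlr3 at 0, 0.96 and 0.37. These sizes depend on the prior count where WT had few or no reads. With a prior count of 0.5 the differences were 4.59, 4.56 and 2.16 for Ifih1, 4.38, 4.39 and 2.16 for Zbp1 and 4.59, 1.91 and 1.16 for Adar, so batches 1 and 2 were not ordered for Ifih1 and Zbp1. Jag2sm replicate 4 has no WT library in its batch.

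The other genes of these pathways were listed with earlier results of these data known, so their calls are a description. They were taken from 5 lists with 56 genes, of which 42 were tested. Of those, 2 were called higher in Jag2sm (Zc3hav1 and Mlkl), 2 were called lower (Cyld and Riok3) and 38 were not called, beside 6.26% of all tested genes called in either direction. Their median log2 fold change was 0.21, and 6 genes had no read in any library. Of these, Trex1 shares exonic bases with Atrip on the same strand, so its reads may have been set aside as ambiguous.

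Among 12 other sensors, 6 were tested and 1 was called, with a median log2 fold change of 1.01. At an edgeR unadjusted p under 0.05 there were 3, beside 19.7% of all tested genes in either direction. Zc3hav1 encodes ZAP, which binds CpG-rich viral RNA and promotes its decay. It was at 5.64, 34.4 and 29.9 CPM in WT and at 73.4, 103, 75.1 and 65.7 CPM in Jag2sm, and all Jag2sm libraries, replicate 3 included, were above WT (log2 fold change 1.48 ± 0.32 SE, edgeR adjusted p = 0.0210). The call was lost without WT replicate 2 (adjusted p = 0.0561), WT replicate 3 (0.0948) or Jag2sm replicate 2 (0.0711). The helicases with the most reads, Dhx9 and Dhx36, had log2 fold changes of 0.12 ± 0.26 and 0.20 ± 0.21 (SE) and overlapping groups. Rigi, the gene of RIG-I, the sensor of short RNA with triphosphate ends and the third member of the family of MDA5 and LGP2, is named here after its values were seen. Its level was 0, 2.55 and 0 CPM in WT and 16.6, 59.7, 1.94 and 24.8 CPM in Jag2sm. Replicate 3 fell among the WT libraries and the measured levels of the other Jag2sm libraries were above them. The 0 of WT replicate 1 allows up to 16.9 CPM, which is above Jag2sm replicates 1 and 3. The log2 fold change was 4.13 ± 1.28 (SE) with an edgeR adjusted p of 0.0888, and Rigi was called with the replicate block (4.55 ± 0.62, adjusted p = 0.00289). Its tested status rests on its reads in Jag2sm. Leaving out replicate 3, the Jag2sm library at the WT level, gave 4.56 ± 0.79, a value that follows from which library was left out. Leaving out WT replicate 2, which holds all 4 WT reads, gave 7.87 (adjusted p = 0.212), and leaving out WT replicate 3 gave 3.46 (adjusted p = 0.291). Ifi204, of the family of DNA sensors related to AIM2, is likewise named after its values were seen. It was at 5.64, 14.0 and 10.3 CPM in WT and at 55.4, 185, 10.2 and 129 CPM in Jag2sm, with replicate 3 among the WT libraries. Ifi204 was not called by edgeR (3.02 ± 0.88 SE, adjusted p = 0.0709) but was by DESeq2 and without a filter on low counts. The edgeR adjusted p was 0.0720 with the replicate block, and 0.191, 0.243 and 0.167 without WT replicate 2, WT replicate 3 or Jag2sm replicate 2. Leaving out Jag2sm replicate 3 gave 3.42 ± 0.47, a value that follows from which library was left out.

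Among 16 adaptors and kinases downstream of the sensors, 13 were tested and none was called by edgeR, nor did any have an unadjusted p under 0.05, and none was called by DESeq2. Their median log2 fold change was 0.07. The examples with the most reads were Ikbkg, the regulatory subunit of the IKK complex (-0.11 ± 0.29 SE), and Tank, a scaffold of the kinase TBK1 (0.31 ± 0.22 SE). Ikbkg ranged from 26.2 to 67.7 CPM in WT and from 33.6 to 40.7 CPM in Jag2sm, and Tank from 30.8 to 39.5 CPM in WT and from 37.3 to 44.9 CPM in Jag2sm.

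Among 10 regulators of sensor signaling, 7 were tested and 2 were called, both lower, beside 4.84% of all tested genes called lower. The median log2 fold change was 0.13. At an edgeR unadjusted p under 0.05 there were 2, beside 19.7% of all tested genes in either direction. Cyld, a deubiquitinase that acts on RIG-I and on NF-kB signaling, was at 79.0, 77.0 and 59.8 CPM in WT and at 31.9, 37.3, 37.3 and 24.8 CPM in Jag2sm. All 4 Jag2sm libraries were below WT (log2 fold change -1.09 ± 0.23 SE, edgeR adjusted p = 0.0192). Riok3, a kinase reported to act on MDA5, was at 260, 130 and 107 CPM in WT and at 73.4, 65.9, 63.5 and 76.9 CPM in Jag2sm, again without overlap (-1.15 ± 0.29 SE, adjusted p = 0.0405). Of all tested genes, 12.2% were separated below WT in this way. With the replicate block neither Cyld nor Riok3 was called, at an edgeR adjusted p of 0.0893 and 0.0587. Leaving out WT replicate 2 ended both calls (0.114 and 0.0749), as did leaving out Jag2sm replicate 2 (0.0524 and 0.124), and Riok3 was not called when any 1 of the 4 Jag2sm libraries was left out.

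Among 8 partners of PKR, ZBP1 and ADAR, all 8 were tested and Mlkl was called, with a median log2 fold change of 0.55. At an edgeR unadjusted p under 0.05 there were 4, beside 19.7% of all tested genes in either direction. Mlkl encodes the pseudokinase that breaches the plasma membrane in necroptosis, downstream of ZBP1 and RIPK3. It was at 5.64, 3.18 and 7.47 CPM in WT and at 26.3, 40.7, 35.4 and 25.6 CPM in Jag2sm. Replicate 3 was the second highest of the Jag2sm libraries here, unlike for Zbp1, and the groups did not overlap (log2 fold change 2.65 ± 0.39 SE, edgeR adjusted p = 0.00539). Mlkl had 14 reads in all of WT, so its tested status, like that of Rigi, rests on its reads in Jag2sm. The call of Mlkl is therefore a description and is read no further. With Jag2sm replicate 3 alone against WT the log2 fold change was 2.80 ± 0.51 (SE), in a fit chosen after seeing the data whose spread comes from the WT libraries alone. In batches 1, 2 and 3 the differences of Mlkl were 1.94, 3.12 and 2.02 on the log2 CPM scale. Ripk3, the kinase that activates MLKL, was at 5.64, 47.7 and 40.2 CPM in WT and at 77.6, 122, 40.2 and 114 CPM in Jag2sm. Jag2sm replicate 3 was level with WT replicates 2 and 3 and above WT replicate 1, which held 1 read. The log2 fold change was 1.21 ± 0.45 (SE), with an edgeR adjusted p of 0.155. Leaving out Jag2sm replicate 3, the library level with WT replicates 2 and 3, gave 1.45 ± 0.35, a value that follows from which library was left out. The adjusted p was 0.251 with the replicate block, and 0.219, 0.324 and 0.338 when WT replicate 2, WT replicate 3 or Jag2sm replicate 2 was dropped. Eif2s1, the gene of eIF2α, the substrate of PKR, had a log2 fold change of 0.21 ± 0.19 (SE) and was not called.

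Among 10 genes that clear nucleic acids, 8 were tested and none was called by edgeR or by DESeq2. At an edgeR unadjusted p under 0.05 there were 2, beside 19.7% of all tested genes in either direction. Rnaseh2c and Rnaseh2a, subunits of the nuclease that removes RNA from DNA hybrids, had log2 fold changes of 0.55 ± 0.30 and 0.67 ± 0.32 (SE). Their Jag2sm libraries were above WT by small margins, 79.4 against 78.4 CPM for Rnaseh2c and 50.9 against 44.8 CPM for Rnaseh2a at the nearest, which are within counting error, and 10.2% of all tested genes are separated in this way.

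**Figure D3:**
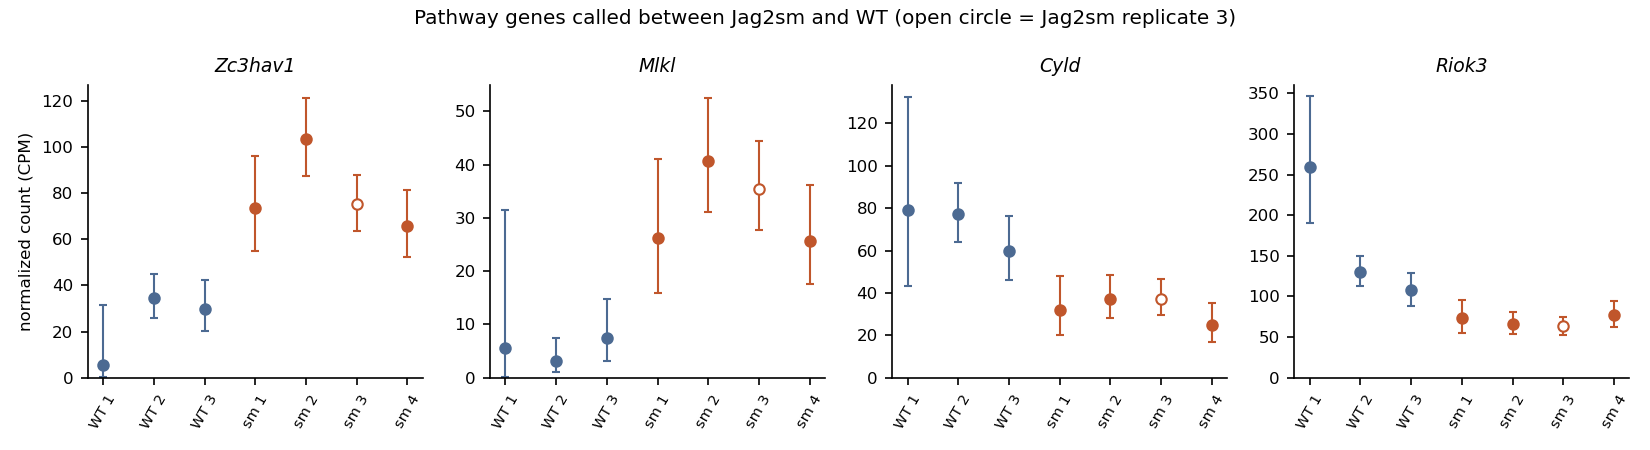
Level in CPM (vertical axes, from 0) of the 4 other pathway genes called between genotypes, in the 3 WT and 4 Jag2sm libraries, with exact 95% Poisson intervals as bars and Jag2sm replicate 3 as an open circle. Zc3hav1 and Mlkl are higher and Cyld and Riok3 lower in all 4 Jag2sm libraries, replicate 3 included.

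The transcripts that these sensors are known to induce, the interferons, were almost absent. Of 10 interferon genes, 9 had no read in any library (Ifna1 among them), and Ifnb1 had 1 read, in Jag2sm replicate 2. A count of 0 allows up to 16.9, 1.91 and 2.80 CPM in WT replicates 1 to 3 and up to 4.16, 2.04, 1.45 and 2.40 CPM in Jag2sm replicates 1 to 4. By contrast, 20 genes known to be induced by interferon summed to 73.4, 45.8 and 39.2 CPM in WT and to 632, 3143, 73.7 and 1436 CPM in Jag2sm, in the order of Jag2sm libraries that Ifih1 and Zbp1 had. Jag2sm replicate 3, with 152 reads, was the lowest of the Jag2sm libraries and above WT replicates 2 and 3, with 72 and 42 reads, and the value of WT replicate 1 rests on 13 reads. Of these 20, 14 were tested and 6 were called higher (among them Isg15, Ifit1, Bst2 and Rtp4), beside 1.42% of all tested genes. Isg15, Ifit1, Bst2 and Rtp4 had 9, 1, 19 and 7 reads in all of WT. The filter kept them because of their reads in Jag2sm, as it did Ifih1, so these calls are a description and are read no further. Isg15, a ubiquitin-like modifier, was at 0, 3.82 and 2.80 CPM in WT and at 140, 901, 8.72 and 367 CPM in Jag2sm (log2 fold change 6.78 ± 1.53 SE, edgeR adjusted p = 0.0262). Its call was lost without Jag2sm replicate 2 (5.73, adjusted p = 0.0527), WT replicate 2 (adjusted p = 0.106) or WT replicate 3 (0.118). The count of called genes was 12 with the replicate block, 13 without Jag2sm replicate 3, 2 of 6 tested without Jag2sm replicate 1 and likewise without Jag2sm replicate 4, 0 of 6 without Jag2sm replicate 2, 1 of 17 without WT replicate 1, and 0 of 17 without WT replicate 2 or WT replicate 3. Jag2sm replicate 3 alone against WT gave 0 of 6, DESeq2 gave 11 and limma-voom gave 0.

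**Figure D4:**
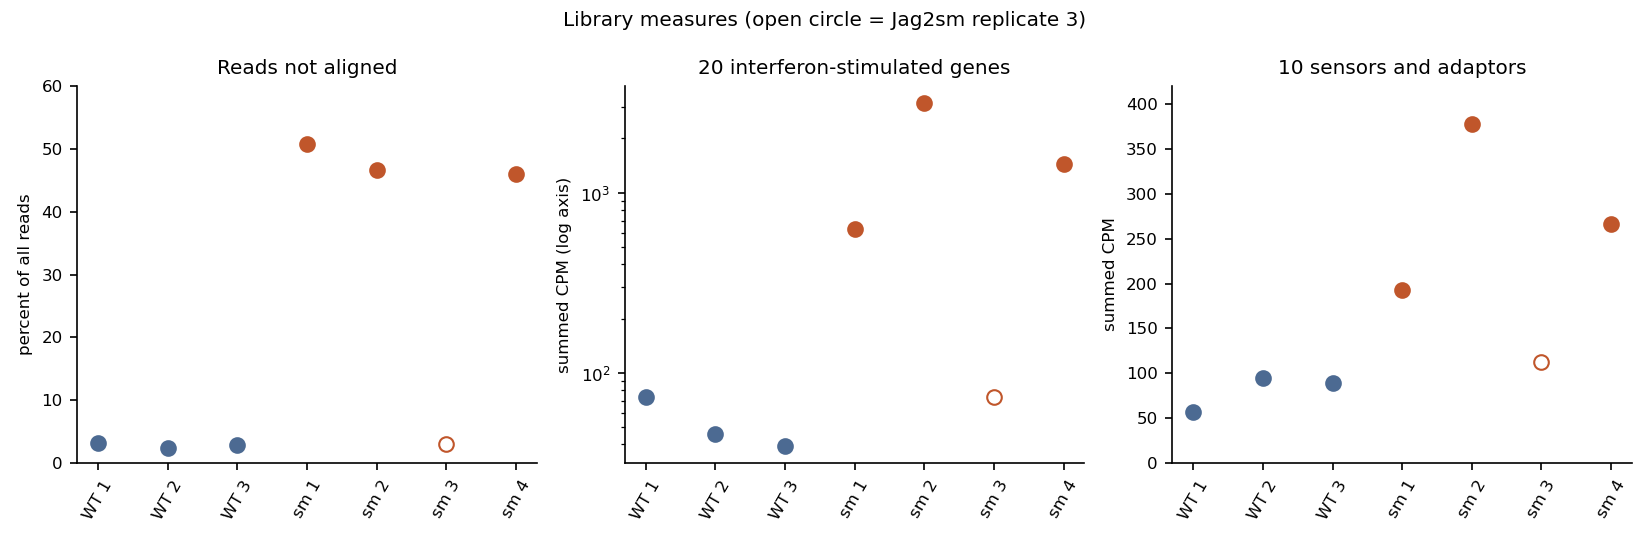
Percent of all reads that did not align (left), summed CPM of 20 interferon-stimulated genes on a log axis (middle) and summed CPM of the 10 sensors and adaptors (right) in each library, with Jag2sm replicate 3 as an open circle. Jag2sm replicates 1, 2 and 4 lie above the other 4 libraries in all 3 panels.

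The 5 tested genes whose profiles over the 7 libraries were most like that of Ifih1, by the root mean square difference of log2 CPM centered on each gene's mean, were Zbp1 (0.107), Irgm1 (0.235), Ifitm3 (0.293), H2-K1 (0.305) and Eif2ak2 (0.330). Irgm1, an interferon-inducible GTPase, was at 5.64, 6.37 and 5.60 CPM in WT and at 43.0, 130, 9.21 and 53.7 CPM in Jag2sm. Ifitm3, a membrane protein that limits viral entry, was at 102, 176 and 159 CPM in WT and at 1406, 2242, 302 and 1475 CPM in Jag2sm. That their Jag2sm libraries have the order of Ifih1 follows from this choice. The 7 points of each profile come from the same libraries and share their depth and their scaling.

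Markers of other cell types were examined in the same libraries. Of 13 immune markers, 6 had no read in any library, namely Ptprc, Adgre1, Lyz2, Tyrobp, C1qa and Cd3e, which define leukocytes, macrophages or T cells. The 13 summed to 5.64, 25.5 and 27.1 CPM in WT and to 16.6, 10.2, 4.36 and 6.41 CPM in Jag2sm. Laptm5 was the most abundant except in Jag2sm replicate 4, where Cd68 was at 4.00 CPM and Laptm5 at 2.40 CPM. The sum was highest in WT replicates 2 and 3, and within Jag2sm it was lowest in replicate 3. Its part in the results was not tested. The 6 endothelial markers summed to 11.3, 3.18 and 2.80 CPM in WT and 13.9, 6.11, 3.88 and 2.40 CPM in Jag2sm, with Kdr at 0 in all. Tek led in WT replicates 1 and 3 and Jag2sm replicate 1. Pecam1 was at 0, 1.27 and 0 CPM in WT and at 1.39, 4.75, 2.91 and 1.60 CPM in Jag2sm, from 2 and 16 reads, and its part in the results was not tested. The 6 fibroadipogenic markers summed to 28.2, 61.1 and 11.2 CPM in WT and 15.2, 4.07, 41.7 and 9.61 CPM in Jag2sm, mostly from Col1a1. Of 7 genes of differentiated muscle, 6 were tested and all 6 were called lower in Jag2sm, beside 4.84% of all tested genes. The 7 genes summed to 25509, 17522 and 20086 CPM in WT and to 3763, 2003, 714 and 4306 CPM in Jag2sm. The part of this difference in the results on the sensors was not tested, and in bulk RNA fewer cells that express a gene and less of its RNA per cell cannot be told apart.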

How the data were processed

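Counts of cultured MuSCs from 3 WT and 4 homozygous Jag2sm samples were used. Per the labels and the paper, the authors prepared direct cDNA libraries with native barcodes, pooled all barcoded samples, sequenced them on nanopore flow cells, called bases with dorado, aligned reads to GRCm39 with minimap2 (2.17 in the submitters' processing notes) and counted them on genes with HTSeq. The deposited values are raw counts of 56748 genes and 5 summary lines per library. The summary lines were left out of the library sizes and served only to describe the libraries. HTSeq's version, strand setting and annotation are not given in the sources used here. The authors' DESeq2 table (mean normalized counts, log2 fold changes, standard errors, test statistics, p-values and adjusted p-values) was not used. Columns of other samples numbered 0.

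Counts were analyzed in R 4.3.3 with edgeR 4.0.16: filterByExpr (minimum count 10, minimum total 15), TMM scaling, glmQLFit and glmQLFTest over all 9489 genes left, with calls where the adjusted p (Benjamini-Hochberg) was under 0.05. The SE is the log2 fold change over the root of F. Alternatives were DESeq2 1.42.0, limma-voom (limma 3.58.1), other scalings, filters, thinning, the replicate block and leaving out each library, and, added after seeing the data, Jag2sm replicate 3 alone against WT. Python 3.11.15 with SciPy 1.17.1 gave the intervals. A count of 0 was taken to allow 3 counts. Fits were tested on simulated data with a common dispersion and with changes only in more abundant genes. That check does not cover genes as sparse and variable as Ifih1, Zbp1 and Adar. Of the identifiers, 56017 were found in GENCODE M39, the source of the locations.

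The batch labels pair replicates 1, 2 and 3 of both genotypes. Deviations from the genotype means correlated within these batches at 0.0742, 0.0143 and 0.0541 across genes, which are not independent replicates.

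The 10 members and all lists were chosen with earlier results of these data known. Named genes were the members, in each list up to 4 called genes by fold change or, where fewer than 2 were called, up to 2 with the highest mean CPM, and the 5 profiles nearest to Ifih1. Rigi, Ifi204 and the marker genes named, Pecam1 and Des among them, are outside this rule, and were named after their values were seen.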

Additional observations from a re-analysis of the deposited data

Results flagged for a closer look

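Measures of the 4 Jag2sm libraries were examined for 1 library far from the others, by the gap to its neighbor over the whole range, against Dixon's critical value. Of 23 measures, 3 passed, and chance passes about 1 in 20 groups. The percent of reads not aligned gave 0.898, with Jag2sm replicate 3 low. The summed level of the 6 muscle stem cell markers gave 0.935, with replicate 4 at 2190 CPM and the others between 1776 and 1803 CPM. The summed level of the 10 interferons gave 1, which rests on the single Ifnb1 read in replicate 2. None of the 10 sensors and adaptors passed on its own, the nearest being Mavs at 0.805, with replicate 4 high.

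The unaligned reads lie outside the gene counts. Their share reached 50.8% in Jag2sm replicate 1, against at most 3.24% in WT. Their sequences were not analysed here.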

How the results depend on the processing

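The fit without covariates called 594 genes, 0 of the 7 tested members and 4 of the 42 other pathway genes. Without a filter on low counts these were 1248 of 25189 genes, 5 of 10 members and 9 of 50 pathway genes, beside 1.86% of genes called higher. With at least 10 counts in every library they were 274 genes and 2 pathway genes, and with libraries thinned to the smallest 34 and 0, and both settings left no member to test. With library size alone 2 members were called (Eif2ak2 and Ifih1), beside 2.54% of genes called higher. With DESeq2 4 were called, beside 1.66% of genes called higher. With the replicate block 3 were called (Ifih1, Eif2ak2 and Zbp1), beside 1.23% of genes called higher, and the pathway genes called there were Mlkl, Rigi and Zc3hav1. Jag2sm replicate 4, alone in its batch, adds nothing to the difference in the blocked fit. With Jag2sm replicate 3 alone against WT, a fit chosen after seeing the data in which the lone sample is assumed to vary like the WT libraries, 221 genes and 1 pathway gene (Mlkl) were called. Leaving out 1 library at a time gave 251 to 616 genes, 0 to 4 members and 1 to 6 pathway genes. The genes called fell to 343 without WT replicate 2, 341 without WT replicate 3 and 251 without Jag2sm replicate 2, members were called only without Jag2sm replicate 3, and pathway genes were fewest without WT replicate 2 or Jag2sm replicate 2 (Mlkl in each). No member was called lower in any of the 16 other settings, and all 87 fold changes that these gave for the 7 members tested without covariates were positive, with 18 called. This tally follows from how the members were chosen and is read no further. The cause of the changes between settings was not tested, beyond the fewer genes or libraries that a setting leaves. The depth of WT replicate 1 limits every statement about sparse genes in WT, and a prior count of 0.5 moved 7 of the 30 within-batch differences by more than the SD of that gene's differences over the 3 batches, all 7 with no read in the WT library.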
